A study of Mus musculus with 4 samples.

Results

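The 47 genes described here had lower RNA levels in splenic regulatory T (Treg) cells without Nsd2 than in wild-type Treg cells, in every library measured. They were chosen by their values in these 4 libraries. For each gene the transcript entry with the highest mean was kept, the mean had to reach 1 RPKM, both knockout values had to lie below both wild-type values, and the wild-type mean had to be at least 1.5 times the knockout mean. RPKM divides a transcript's reads by its length and by the library's depth. Of 15596 gene names in the files, 10319 were named genes that reached this mean, and 76 of these (0.737%) met the numeric conditions. Accessions had been left out before these counts. From the 76, names of the kinds Gm, Mir, Sno, Tra, Trb, Igh, Igk and Rik were left out (20 genes), as were 9 genes excluded by name. These 9 were Nsd2 itself (listed as Whsc1), Cxcr4, Il7r, Tsc22d3, Phlpp1, Fkbp5, Fosl2, Dusp1 and Hsph1. Because the choice fixed the direction, the differences below are a description and were not tested. Across all 10319 genes, limma on log2(RPKM + 1) called 0 genes (0.0%) at a Benjamini-Hochberg threshold of 0.05. Before adjustment 320 passed 0.05, fewer than the share of 0.05 that would pass with no difference at all. The list therefore rests on ranks and ratios alone. With the replicate number as a block, 1642 of the 10319 passed 0.05 before adjustment, though the labels do not say what a number stands for. After adjustment that fit called 4 genes lower in cKO (0.0388%), of which 0 were among the 47.

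Both groups were Treg cells sorted from spleens of the C57BL/6 strain. The conditional knockout group (cKO, 2 libraries) carried a Treg-directed deletion of Nsd2, and the wild-type group (WT, 2 libraries) did not. The labels name neither the Cre driver, the deleted exons, the age nor the sex of the mice, and each library pooled RNA of 3 or more mice. The spread within a group is therefore a spread between pools, which may be partly technical. Nsd2 stood at 3.46 and 4.27 RPKM in cKO and at 6.82 and 7.44 RPKM in WT, which left 54.2% of the WT mean. RNA outside the deleted exons would still be counted, so this value checks the labels and does not measure the protein. The Treg and T cell markers Foxp3, Il2ra, Ctla4, Ikzf2, Tnfrsf18, Lrrc32, Cd3e, Cd3g and Cd4 were all present in every library, with summed Treg markers of 645 and 668 RPKM in cKO and 641 and 635 RPKM in WT. Summed markers of myeloid cells were 21.2 and 6.36 RPKM in cKO and 6.98 and 10.6 RPKM in WT, with 7 of 8 markers listed, and summed erythroid markers were 20.8 and 3.87 RPKM in cKO and 11.5 and 5.47 RPKM in WT, with 3 of 4 listed. Both sums were highest in cKO replicate 1. Summed B cell markers were 11.8 and 11.0 RPKM in cKO and 8.67 and 6.88 RPKM in WT, with 4 of 7 listed. In Cd79a, Cd79b and Cd22 both cKO values lay above both WT values (17.4% of all genes). In Blk, the other listed marker, the groups overlapped, at 0.126 and 0.190 RPKM in cKO and 0.207 and 0.106 RPKM in WT. The part of these cells in the differences below was not tested. Depth, read from the steps between low values, was 19129000 to 21262000 reads per library.

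Treg cells are the Foxp3-expressing CD4 T cells that restrain immune responses, and Nsd2 is a histone methyltransferase that places dimethyl marks on histone H3 across gene bodies and the regions between genes. The 47 genes have no single function in common. They encode an endocytic adaptor, co-chaperones of the heat shock response, parts of receptor and second messenger signalling, enzymes of fatty acid use and of protein hydroxylation, and a few regulators of transcription. They are grouped below by these roles, and the roles were assigned after the values were known.

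The differences were moderate in size and the genes mostly weakly expressed. In these pooled cells, fewer cells with a transcript and less of it per cell cannot be told apart. The median log2 ratio of cKO over WT was -0.75, with a range from -1.85 to -0.59, beside a median of 0.03 over the 10318 genes with a mean above 0 in both groups. The WT mean was at least 2 times the cKO mean in 6 genes, which were Ston1, Matn2, Ramp3, Lman2l, Rundc3b and Tcrb-V13. Arhgef5, with 50.1% of its WT level left in cKO, fell just short of 2-fold. The median level over the 4 libraries was 3.12 RPKM for the 47 genes and 11.2 RPKM for all genes, and 30 of the 47 had a mean below 5 RPKM (63.8% of them, against 26.2% of all genes). At the other end, 12 genes had a mean of 10 RPKM or more, up to 83.5 RPKM for Ifngr1. Transcripts of the 41 genes with a known length had a median of 3141 nt, near the 2859 nt of all genes, and their GC content was 49.9% against 50.5%.

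**Figure D1:**
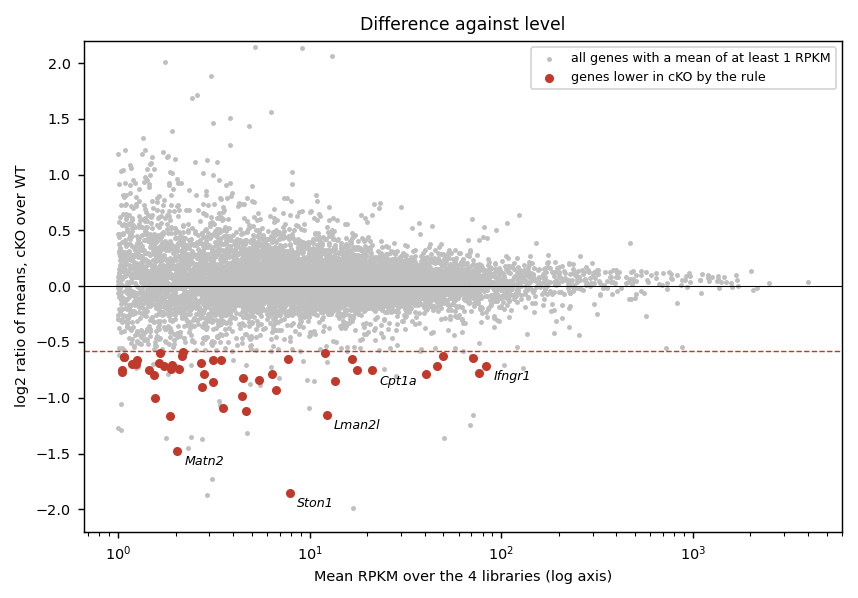
The log2 ratio of the cKO mean over the WT mean (vertical axis) against the mean RPKM over the 4 libraries (horizontal, log axis) for all genes averaging 1 RPKM or more (grey) and the 47 genes lower in cKO (red); the dashed line marks a 1.5-fold lower cKO mean, and 16 genes lie outside the plotted range. The red points lie below the line by the way they were chosen, most of them at the low end of the level axis, with Ston1 lowest at -1.85.

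Separation between the groups was wide for some genes and nominal for others. The lower WT value was at least 1.5 times the higher cKO value in 11 genes, led by Matn2 (2.42 times), Ston1 (2.204) and Ramp3 (2.07). It was less than 1.1 times the higher cKO value in 6 genes, which were Crem, Dynlt1e, Chordc1, Plin2, Bclp2 and Dnaja1. In Crem the groups touched, at 5.22 RPKM in both cKO replicate 1 and WT replicate 1. The WT libraries themselves differed in many of the genes. WT replicate 2 was at least 1.5 times WT replicate 1 in 15 of the 47 (3.8% of all genes), and WT replicate 1 was at least 1.5 times WT replicate 2 in Ston1 and Tcrb-V13 (2.69% of all genes). With WT replicate 2 left out, 23 of the 47 still met the rule, against 36 without cKO replicate 1, 37 without cKO replicate 2 and 38 without WT replicate 1. In 17 genes the WT value was at least 1.5 times the cKO value within each pair of libraries with the same number. In 12 genes, all of them among these 17, the rule was met whichever library was left out. The 12 were Ston1, Matn2, Ramp3, Lman2l, Rundc3b, Arhgef5, Gphn, Klf11, Hmgn3, Cpt1a, Pam and Amacr. Both readings reuse the values by which the genes were chosen, so they are a description and not separate checks. Leaving out a library cannot undo the separation of a chosen gene, so only the limits on mean and ratio could fail.

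**Figure D2:**
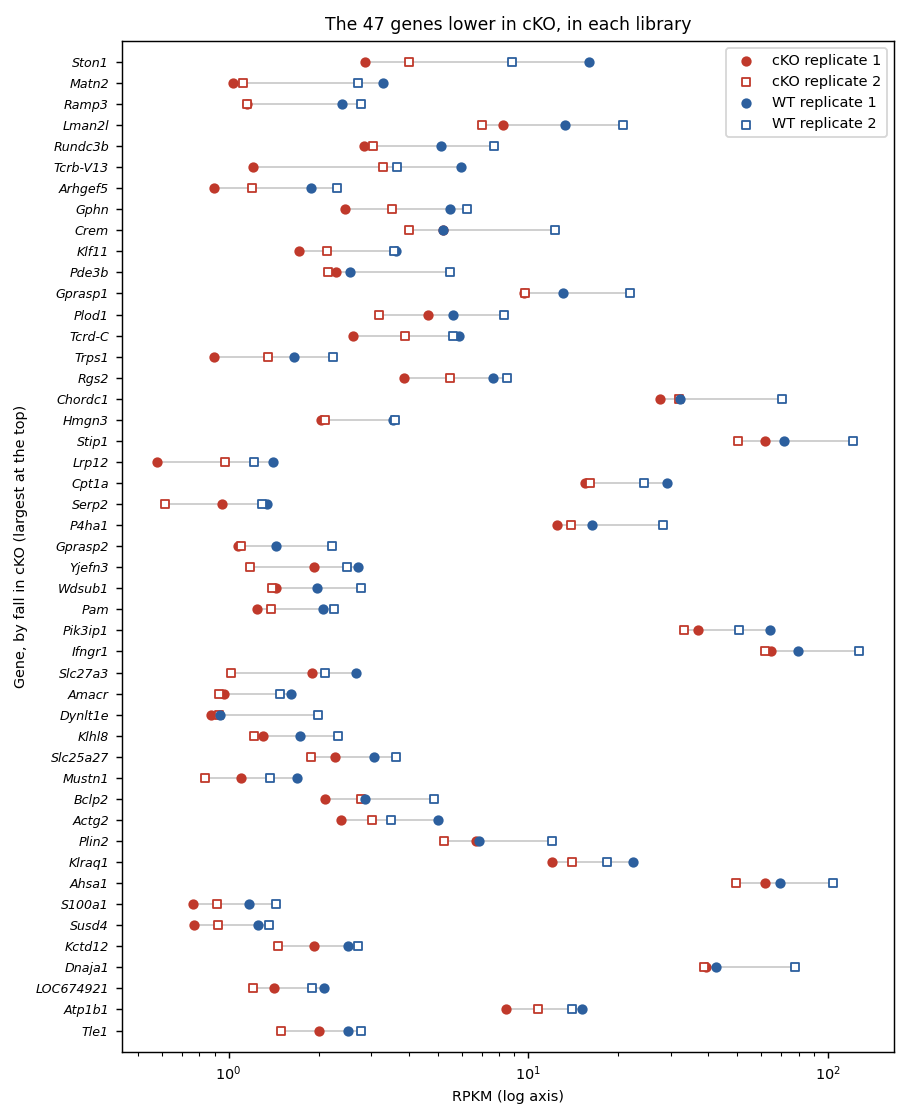
RPKM (horizontal, log axis) of each of the 47 genes in cKO replicates 1 and 2 (red filled circles and open squares) and WT replicates 1 and 2 (blue filled circles and open squares), ordered by the ratio of means, with a grey line from the lowest to the highest value. Both red marks lie left of both blue marks in every row by the way the genes were chosen; in rows such as Crem, Chordc1 and Plin2 WT replicate 1 sits beside the cKO marks and only WT replicate 2 stands away.

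**Figure D3:**
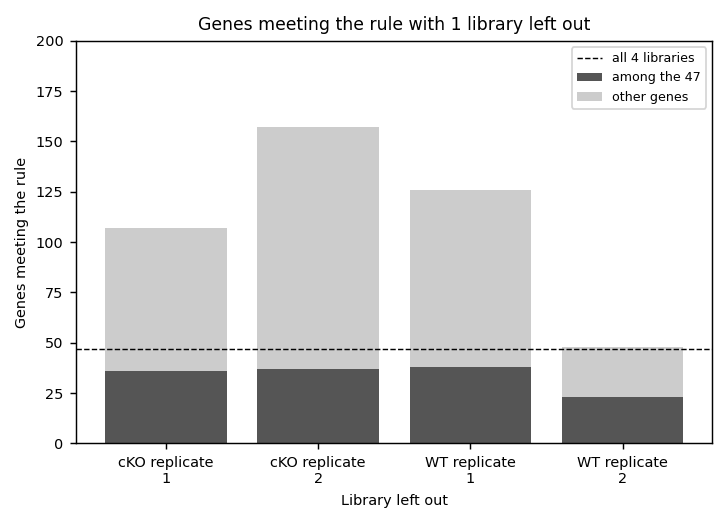
Number of genes meeting the rule when 1 library is left out (bars), split into those among the 47 (dark) and other genes (light); the dashed line is the 47 genes of all 4 libraries. The dark part is 36 without cKO replicate 1, 37 without cKO replicate 2, 38 without WT replicate 1 and 23 without WT replicate 2. With a library left out the separation is easier to meet, so the line is not a like-for-like reference for the whole bars.

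Ston1, which encodes stonin-1, an adaptor protein of endocytosis, differed most. It stood at 2.86 and 4.004 RPKM in cKO, against 15.99 and 8.82 RPKM in WT. The means were 3.43 ± 0.809 RPKM in cKO and 12.4 ± 5.07 RPKM in WT (SD, n = 2 each), so cKO held 27.7% of the WT level. These values stood for about 164 and 254 reads in cKO and 931 and 503 reads in WT. The WT libraries were 1.8-fold apart, and both lay more than 2-fold above the higher cKO library. Ston1 lies on GRCm38 chromosome 17 (88597615 to 88647865, plus strand). Its upstream neighbour on the same strand, Klraq1 (named Ppp1r21 in RefSeq, 88530124 to 88588367), an endosomal protein, was also among the 47 genes, with 9247 bases between the annotated ends. Klraq1 stood at 12.1 and 14.0 RPKM in cKO, against 22.5 and 18.4 RPKM in WT, and like Ston1 it was highest in WT replicate 1 and lowest in cKO replicate 1. Further upstream, Foxn2, a forkhead transcription factor, had overlapping groups, with 10.9 and 13.3 RPKM in cKO and 12.7 and 14.7 RPKM in WT. Of 32 genes listed for endocytosis and membrane traffic, 24 reached a mean of 1 RPKM, and both cKO values lay below both WT values in 2 of them, Ston1 and Ap2a2 (9.01% of all genes), and above in 0 (17.4% of all genes).

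The 4 co-chaperones, which help the large chaperones of the heat shock response to fold their clients, were among the more abundant of the 47 genes, and all were highest in WT replicate 2. Stip1, which links the chaperones Hsp70 and Hsp90, stood at 61.8 and 50.4 RPKM in cKO, against 71.4 and 121 RPKM in WT. Ahsa1, an activator of Hsp90, stood at 61.9 and 49.4 RPKM in cKO, against 69.4 and 104 RPKM in WT. Chordc1, another Hsp90 partner, stood at 27.6 and 32.0 RPKM in cKO, against 32.2 and 70.5 RPKM in WT. In each, WT replicate 2 was at least 1.5 times WT replicate 1, and WT replicate 1 lay near the higher cKO library. Dnaja1, a J-domain partner of Hsp70, followed with 39.4 and 38.7 RPKM in cKO, against 42.4 and 77.8 RPKM in WT. Between the libraries numbered 1 the log2 ratios of these 4 genes were -0.22 to -0.11, and between those numbered 2 they were -1.27 to -1.01. Without WT replicate 2, 0 of the 4 met the rule.

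Across the list of heat shock proteins and co-chaperones, WT replicate 2 was high in part of the genes. Of 28 genes that reached a mean of 1 RPKM, 11 had both cKO values below both WT values (9.01% of all genes), 1 had both above (17.4% of all genes), and the median log2 ratio of cKO over WT was -0.28. The list's median ratio of WT replicate 2 over WT replicate 1 was 1.42, beside 0.988 over all genes. Hsp90aa1, the inducible Hsp90, shows the pattern without being one of the 47, since its groups overlap, with 98.8 and 97.2 RPKM in cKO and 97.7 and 229 RPKM in WT. Others differ: Dnaja2, at 30.7 and 37.6 RPKM in cKO and 31.9 and 38.7 RPKM in WT, was higher in replicate 2 of both groups. In Hsf1, Bag3, Hspb1 and Hspa9 WT replicate 2 was not the highest library. The numeric conditions were met by 5 of the 28 (0.737% of all genes), the 4 co-chaperones and Hsph1, which was left out by name. The part that WT replicate 2 plays in the lower cKO means was not tested. The list was written with earlier results of these data known.

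**Figure D4:**
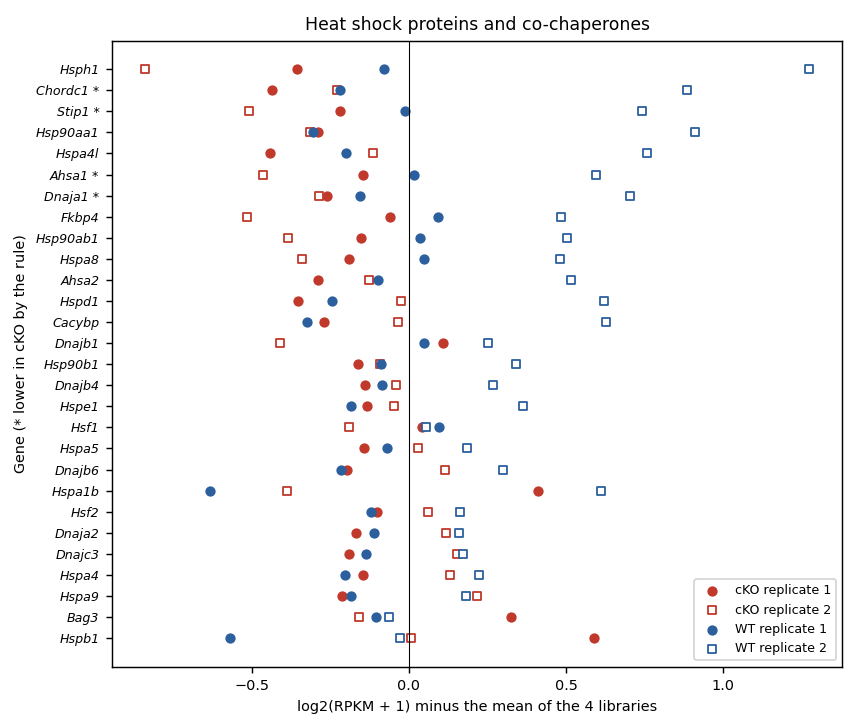
Level of each of 28 heat shock genes in each library, as log2(RPKM + 1) minus the gene's mean over the 4 libraries, for cKO replicates 1 and 2 (red filled circles and open squares) and WT replicates 1 and 2 (blue filled circles and open squares), from the lowest log2 ratio of cKO over WT at the top; asterisks mark Chordc1, Stip1, Ahsa1 and Dnaja1. For most genes of the upper rows WT replicate 2 stands alone on the right, while WT replicate 1 lies near the cKO libraries.

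The promoter windows of these co-chaperones were read for the letters that the heat shock factor is known to bind, because all 4 genes were highest in WT replicate 2. Windows ran from 250 bases before to 50 bases after each RefSeq start (GRCm38.p6), and 34 of the 47 genes had at least 1. The heat shock element, searched as GAA, TTC and GAA with 2 bases between each and the next, on both strands, was present in Chordc1 alone among the 34 genes (1 of 39 windows), against 0.603% of all 32851 windows. The shorter motif GAANNTTC or TTCNNGAA, each the same on both strands, which every such element contains, was present in 5 of the 39 windows (in Chordc1, Dnaja1, Arhgef5, Mustn1 and Plod1) and in 15.1% of all windows, or 12% of the 10200 windows of genes that reached 1 RPKM. In Chordc1 (chr9:18292147-18292286, plus strand) 4 overlapping matches of the short motif ran from base -4 to base 19, across the start. The stretches below cover 120 bases before and 20 bases after the start, with the short motif in capitals; that of Stip1 (chr19:7040007-7040146, minus strand) holds no match and is shown beside it.
Chordc1: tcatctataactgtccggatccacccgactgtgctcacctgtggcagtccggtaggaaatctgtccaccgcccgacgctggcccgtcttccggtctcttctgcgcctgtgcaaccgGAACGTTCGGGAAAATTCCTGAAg
Stip1: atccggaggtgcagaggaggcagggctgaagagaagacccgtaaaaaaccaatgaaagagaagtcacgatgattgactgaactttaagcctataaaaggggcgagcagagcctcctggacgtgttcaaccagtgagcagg
These matches describe letters only. The window for Ahsa1 lies inside the gene, away from its listed start, and is not shown. The cyclic AMP response element TGACGTCA was in 0 of the 39 windows, in 1.79% of all windows and in 3.2% of those of genes that reached 1 RPKM, and the glucocorticoid response element, searched as AGAACA and TGTTCT with 3 bases between, in 0 of the 39 and 0.00913% of all.

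Receptor and second messenger signalling took in 9 of the genes. Ifngr1, the ligand-binding chain of the interferon gamma receptor, was the most abundant of the 47, at 64.9 and 61.6 RPKM in cKO, against 80.0 and 128 RPKM in WT. Its partner chain Ifngr2 had both cKO values above both WT values, at 19.6 and 19.0 RPKM in cKO and 18.2 and 18.7 RPKM in WT (17.4% of all genes). Pik3ip1, a membrane protein that restrains phosphoinositide 3-kinase, stood at 37.0 and 33.1 RPKM in cKO, against 64.4 and 50.6 RPKM in WT. The cKO mean was 35.0 ± 2.76 RPKM and the WT mean 57.5 ± 9.73 RPKM (SD, n = 2 each), and WT replicate 1 was the higher of the WT pair. Pik3ip1 was 1 of 9 genes of 29 in the phosphoinositide 3-kinase, Akt and Foxo list with both cKO values below both WT values (9.01% of all genes), and 2 of the 29 had both above (17.4% of all genes). Of these 9 genes, Pik3ip1 and Phlpp1 alone also had a WT mean at least 1.5 times the cKO mean (0.737% of all genes met both conditions). Among 27 cytokine receptor genes, both cKO values lay below both WT values in 5 and above in 5.

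Several of the signalling genes act on G protein-coupled receptors or on the messengers behind them. Rgs2, which shortens signalling by G proteins, stood at 3.85 and 5.47 RPKM in cKO, against 7.65 and 8.49 RPKM in WT. Ramp3, which modifies receptors of the calcitonin family, stood at 1.15 and 1.16 RPKM in cKO, against 2.39 and 2.78 RPKM in WT, from about 27.3 to 65.6 reads per library. Both genes had even WT pairs, and without cKO replicate 1 Rgs2 no longer met the rule. Gprasp1, which sorts internalised receptors for degradation, stood at 9.68 and 9.77 RPKM in cKO, against 13.1 and 21.95 RPKM in WT. Gprasp2, its relative, stood at 1.08 and 1.097 RPKM in cKO, against 1.44 and 2.22 RPKM in WT. These 2 genes lie 96342 bases apart by their starts on chromosome X, and both were highest in WT replicate 2. Armcx5, which shares exons with Gprasp1 in GENCODE M21, stood at 4.14 and 4.74 RPKM in cKO and 3.86 and 3.66 RPKM in WT, while Bhlhb9, which shares exons with both, stood at 5.08 and 7.70 RPKM in cKO and 6.90 and 7.44 RPKM in WT. The sources used here do not give how reads over shared exons were counted, and the values of this cluster are uncertain.

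Pde3b, which degrades cyclic AMP, stood at 2.29 and 2.14 RPKM in cKO, against 2.55 and 5.48 RPKM in WT. Only WT replicate 2 was apart from the rest. Arhgef5, a guanine nucleotide exchange factor, stood at 0.895 and 1.20 RPKM in cKO, against 1.89 and 2.30 RPKM in WT, with similar log2 ratios between the libraries numbered 1 (-1.08) and 2 (-0.94). Kctd12, an auxiliary subunit of GABA-B receptors, stood at 1.93 and 1.46 RPKM in cKO, against 2.51 and 2.72 RPKM in WT.

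The 5 regulators of transcription and chromatin were expressed at low levels. Klf11, a Kruppel-like repressor, stood at 1.72 and 2.13 RPKM in cKO, against 3.62 and 3.57 RPKM in WT. Hmgn3, a nucleosome-binding protein, stood at 2.03 and 2.11 RPKM in cKO, against 3.53 and 3.60 RPKM in WT. In both genes the WT pair was tight and the groups were well apart, and the log2 ratios of Hmgn3 were -0.80 and -0.77 within the numbers. Hmgn3 rested on only about 33.7 and 38.6 reads in cKO and 59.5 and 59.4 reads in WT. The closeness of its ratios is therefore no measure of precision. Crem, a transcription factor of the cyclic AMP pathway, stood at 5.22 and 4.01 RPKM in cKO, against 5.22 and 12.3 RPKM in WT. Its level in WT replicate 2 was 2.36 times that in WT replicate 1, the widest WT gap among the 47. Of its 11 transcript entries, 8 had both cKO values below both WT values; the entries share most of their sequence and are not separate measurements. Trps1, a GATA-type repressor, stood at 0.892 and 1.36 RPKM in cKO, against 1.66 and 2.24 RPKM in WT. Tle1, a Groucho co-repressor, was the gene nearest the 1.5-fold limit, at 2.01 and 1.496 RPKM in cKO, against 2.51 and 2.76 RPKM in WT.

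Of 4 genes for fatty acid use and storage, Cpt1a was the most abundant. Cpt1a, which commits long-chain fatty acids to oxidation in mitochondria, stood at 15.6 and 16.2 RPKM in cKO, against 29.1 and 24.4 RPKM in WT. The means were 15.9 ± 0.430 RPKM in cKO and 26.7 ± 3.31 RPKM in WT (SD, n = 2 each), from 1290 to 2449 reads per library, and the groups were well apart. Amacr, a racemase that readies branched fatty acids for oxidation, stood at 0.969 and 0.931 RPKM in cKO, against 1.61 and 1.48 RPKM in WT. Plin2, which coats lipid droplets, stood at 6.73 and 5.26 RPKM in cKO, against 6.84 and 12.01 RPKM in WT. Slc27a3, an acyl-CoA synthetase, stood at 1.91 and 1.02 RPKM in cKO, against 2.67 and 2.10 RPKM in WT. For Plin2 the difference was in WT replicate 2 alone, and for Slc27a3 the cKO libraries were nearly as far apart in RPKM as the group means.

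Enzymes that hydroxylate proteins, and 1 matrix protein, formed a further group. P4ha1, a prolyl hydroxylase subunit of collagen synthesis, stood at 12.5 and 14.0 RPKM in cKO, against 16.3 and 28.2 RPKM in WT. Plod1, a lysyl hydroxylase of the same pathway, stood at 4.62 and 3.18 RPKM in cKO, against 5.63 and 8.33 RPKM in WT. In both, WT replicate 2 was the high library. Pam, which hydroxylates and cleaves peptide ends to give amidated peptides, had even pairs, with 1.24 and 1.39 RPKM in cKO, against 2.07 and 2.25 RPKM in WT. Matn2, a matrilin of the extracellular matrix, stood at 1.03 and 1.12 RPKM in cKO, against 3.29 and 2.71 RPKM in WT, and had the widest gap between the groups of all 47. Col1a1 and Col1a2, which mark matrix-making stromal cells, were below 1 RPKM in every library, while Pecam1, an endothelial marker that some leukocytes also carry, stood at 43.2 and 44.7 RPKM in cKO and 42.2 and 38.3 RPKM in WT.

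Genes of the secretory pathway and the membrane were headed by Lman2l, a lectin of the endoplasmic reticulum that takes part in cargo export. Lman2l stood at 8.23 and 7.04 RPKM in cKO, against 13.2 and 20.7 RPKM in WT, and 44.9% of the WT mean was left in cKO. Atp1b1, the beta subunit of the sodium pump, stood at 8.44 and 10.8 RPKM in cKO, against 15.2 and 14.0 RPKM in WT. Its exons overlap Nme7 on the opposite strand. The mitochondrial carrier Slc25a27, the complement regulator Susd4, the receptor Lrp12 and Serp2 had means from 1.05 to 2.71 RPKM. Lrp12 stood at 0.576 and 0.972 RPKM in cKO, against 1.41 and 1.22 RPKM in WT. Serp2 had the lowest read number in any library of the 41 genes with a length, at about 13.7 and 9.78 in cKO and 19.6 and 18.6 in WT. Its cKO libraries were 1.5-fold or more apart, as in 5 other genes.

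Scaffold and cytoskeletal genes included Rundc3b and Gphn, both among the 12 that met the rule under every omission. Rundc3b, a RUN-domain protein, stood at 2.84 and 3.05 RPKM in cKO, against 5.10 and 7.72 RPKM in WT. Gphn, which encodes the receptor scaffold gephyrin, stood at 2.44 and 3.52 RPKM in cKO, against 5.48 and 6.28 RPKM in WT. The other 6 placed in this group were Actg2, Dynlt1e, Klhl8, Wdsub1, Mustn1 and S100a1, with means from 1.07 to 3.46 RPKM. The placing is loose, and not all of these encode scaffold or cytoskeletal proteins. The kept Dynlt1e entry, matched to Dynlt1f in RefSeq, stood at 0.872 and 0.932 RPKM in cKO, against 0.937 and 1.99 RPKM in WT. Only WT replicate 2 was apart. Actg2 is close in sequence to the abundant cytoplasmic actins, and Dynlt1e has near-identical copies, so their reads may belong to other genes. The second Dynlt1e entry was not lower, at 1.28 and 0.990 RPKM in cKO and 1.02 and 0.916 RPKM in WT.

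Among the remaining genes were 2 T cell receptor segments, kept because the files list them under older names that the name rule does not cover. Tcrb-V13 (Trbv14 in RefSeq) stood at 1.21 and 3.28 RPKM in cKO, against 5.96 and 3.64 RPKM in WT, and both pairs were wide. Tcrd-C (Trdc), the constant region of the delta chain, stood at 2.61 and 3.88 RPKM in cKO, against 5.88 and 5.61 RPKM in WT. Each lost its place without cKO replicate 1. Yjefn3, Bclp2 (a synonym of Chil5 in RefSeq) and LOC674921, which was not matched to RefSeq, had means from 1.65 to 3.14 RPKM. Exons of 21 of the 47 genes overlap another gene in GENCODE M21, and the sources used here do not give whether counting used strand. Ston1, Matn2, Ramp3 and Lman2l are among the 21, each with an overlap on the opposite strand. The share of all genes with such an overlap was not computed.

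**Figure D5:**
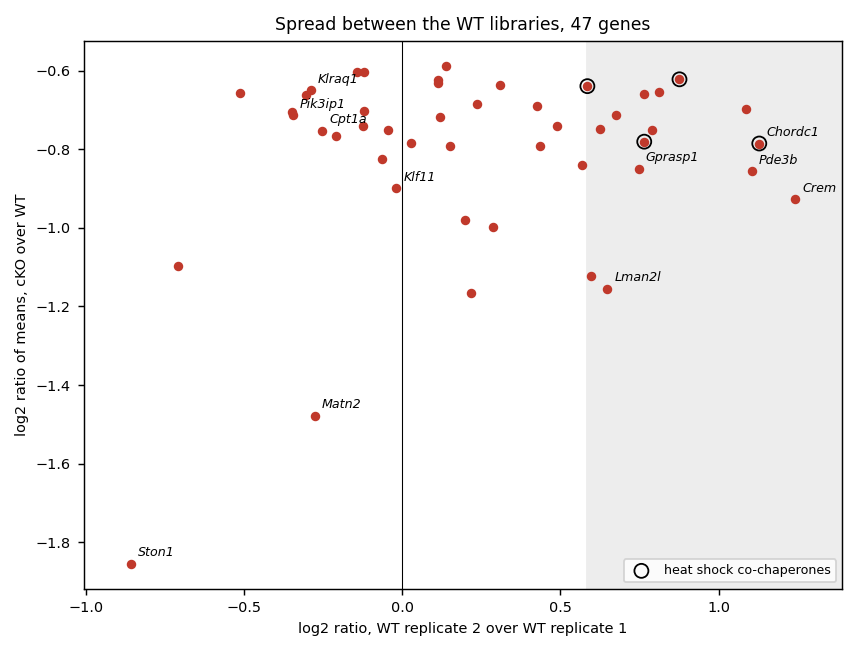
For each of the 47 genes, the log2 ratio of the cKO mean over the WT mean (vertical) against the log2 ratio of WT replicate 2 over WT replicate 1 (horizontal); the shaded area holds the 15 genes whose WT replicate 2 was at least 1.5 times WT replicate 1, and rings mark the 4 co-chaperones. Ston1 and Matn2 lie at the bottom left, with the lowest cKO over WT ratios and WT replicate 1 as the higher WT library, while Crem, Chordc1 and Pde3b lie at the far right.

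The limits of the rule ran through a continuous range of genes. Just inside the 1.5-fold limit stood Tle1 (1.503 times), Atp1b1 (1.519) and LOC674921 (1.519), and just outside it Dnajb2 (1.499), LOC100504120 (1.498) and Fkbp4 (1.497). LOC674921 stood at 1.41 and 1.21 RPKM in cKO, against 2.09 and 1.89 RPKM in WT. Outside the limit, LOC100504120 stood at 27.4 and 32.8 RPKM in cKO, against 39.1 and 51.2 RPKM in WT. Dnajb2 and Fkbp4 encode further co-chaperones. Dnajb2 stood at 8.49 and 5.76 RPKM in cKO, against 9.98 and 11.4 RPKM in WT, and Fkbp4 at 58.7 and 42.6 RPKM in cKO, against 65.4 and 86.2 RPKM in WT. On the level limit, Lrp12, Serp2 and S100a1 had means of 1.05 to 1.07 RPKM, and Farp2, Akap7 and LOC100504303 were left out with means of 0.973 to 0.999 RPKM. The mirrored rule for genes higher in cKO, with the same names left out, held 141 genes. Before names were left out, 163 of the 10319 genes (1.58%) met it, against the 76 that met the lower rule. Values ran slightly higher in cKO across genes, with median-of-ratios library factors of 1.004 and 1.026 in cKO and 0.993 and 0.984 in WT. The mirrored rule was not rerun on rescaled values, and the part of this offset in the unequal counts was not tested.

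By position, 46 of the 47 genes were matched to RefSeq, and no chromosome held more than 5 of them. Apart from Klraq1 and Ston1 and the pair Gprasp1 and Gprasp2, 1 other pair started within 2000000 bases of each other, Slc27a3 and S100a1 on chromosome 3, with 125804 bases between their starts. The remaining lists held few of the 47 genes, in part because genes excluded by name belong to them. Each is given as the genes with both cKO values below both WT values, and then those with both above, beside 9.01% and 17.4% of all genes. All lists used here, those above included, were written with earlier results of these data known, so their counts are a description only. The glucocorticoid receptor targets held 12 and 1 of 21 genes. Of these 21, 6 met the numeric conditions (0.737% of all genes), which were Pik3ip1 and the excluded Cxcr4, Dusp1, Fkbp5, Il7r and Tsc22d3. Among immediate early and AP-1 genes the counts were 13 and 2 of 38, and among resting T cell genes 6 and 3 of 20. For surface receptors and adhesion they were 3 and 7 of 31, for clock genes 3 and 3 of 14, for chromatin regulators 7 and 3 of 40, and for quiescence and RNA decay factors 3 and 1 of 17. In these last 6 lists the genes that met the numeric conditions were all excluded by name: Dusp1 and Fosl2 among immediate early genes, Il7r among resting T cell genes, Cxcr4 among surface receptors, Nsd2 among chromatin regulators and Tsc22d3 among quiescence factors, with 0 among clock genes.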

How the data were processed

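Splenic Treg RNA was read as 50 nt single ends in 2 cKO and 2 WT libraries, grouped by the titles in the labels. The authors deposited 1 table per library with RPKM for 19291 transcript entries; no header names the unit, which the values gave. The submitters' processing notes name HISAT2, DESeq2 and mm10 without version or role. The counting tool, strand setting and row filter were not stated. Depth (19129000 to 21262000 reads) was the value at which low RPKM, multiplied by GENCODE M21 transcript length, fell closest to whole reads. Of 1432 to 1606 such values per library, 63.6% to 64.8% came within 0.1 of a whole number, where 20% would by chance, and the depth was chosen on these same values. Names and positions came from RefSeq GRCm38.p6. limma (3.58.1, R 4.3.3) with trend and robust moderation was run on log2(RPKM + 1) over 10319 genes, two-sided, with Benjamini-Hochberg adjustment. Its code was also run on simulated data with independent noise of a fixed size and no replicate effect. That run does not measure the power of the fit in these data. The genes and lists were chosen with earlier results of these data known. By rule, values in every library are given for Nsd2, Ston1, the 20 genes with the largest ratio, the 10 with the highest WT mean, those in a list and those nearest the ratio limit. Other genes given by library, such as Gprasp2, Pam, Amacr, Plin2, Slc27a3, Kctd12, Dynlt1e and neighbours of the 47, were chosen after their values were seen. Python 3.11.15 and matplotlib 3.10.9 were used. The values of 1 list gene are not reported here.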

Additional observations from a re-analysis of the deposited data

How the results depend on the processing

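The number of genes meeting the rule depended on its limits and on single libraries. It was 6 with a ratio of at least 2 and 221 with a WT mean at least 25% above the cKO mean, and 75, 31 and 17 with a mean of at least 0.5, 2 and 5 RPKM. Leaving out 1 library gave 48 (without WT replicate 2) to 157 (without cKO replicate 2). With fewer libraries the separation is easier to meet, so these counts are not like for like with the 47. Median-of-ratios scaling gave 65 genes and the same sum in every library 61, each with all 47 among them, and the sum of transcript entries 55, with 46 of the 47. Paired by replicate number as a block, with at least 1.5-fold within each number, 17 genes remained, all among the 47. The labels do not say that a number marks a shared animal, batch or day; across 10319 genes the difference of replicate 1 from 2 in cKO correlated with that in WT (r = 0.525), a hint from the data and not the design. The median log2 ratio of the 47 ran from -0.89 without WT replicate 1 to -0.57 on the log2(RPKM + 1) scale. In each alternative run it moved by less than 0.226, the SD of its values within the numbers. The same 47 genes, chosen on these values to be lower in cKO, were kept in each run. This median could therefore hardly change sign, and its steadiness is not a separate check. limma called 0 genes with pseudocounts of 0.5 and 0.1, with no filter on low values and with median-of-ratios scaling, and 10 with the replicate block, 4 of them lower in cKO and 0 among the 47 (0.0388% of all genes were called lower). Without 1 library it called 30 (without WT replicate 2) to 95 (without cKO replicate 2), in fits whose lone library is assumed to vary like the other group. Of the 47, these fits called 3 (without WT replicate 2) to 14 (without WT replicate 1) lower, and the list was chosen on the same values. The cause of these changes was not tested. Depth limits the 10 genes with under 50 reads in a library, which include Ramp3, Hmgn3 and Amacr.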
